A study of Nicotiana tabacum with 8 samples.

Results

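Tobacco genes whose leaf transcript level separated the *NtCBL5A*-overexpressing line OE-2 from the wild type (WT), both with and without salt, are described here. Members were selected on measured values. A gene was taken when it had at least 20 counts in all 4 libraries of one genotype and when its lowest FPKM there was at least 3 times its highest FPKM in the other genotype. FPKM is the read count scaled by gene length and by a total of the library. Genes that the study names with an identifier were left out, but none of those 28 genes met the rule. Of 81378 genes in the table, 50 met it. In OE-2 31 of them were higher, and in WT 19 were higher. Because the difference between the genotypes chose these genes, it is given below as a description with no test.

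The 4 groups were S-OE2, C-OE2, S-WT and C-WT, where S stands for 100 mM NaCl and C for the same nutrient solution without added salt. The experiment was done 2 times independently, and each time 1 library per group was made from the fifth leaf blades, without main veins, of 4 pooled plants about 34 days after germination and 4 days after the start of the treatment. Both genotypes were the tobacco cultivar Zhongyan 100. OE-2 is 1 homozygous line, made by *Agrobacterium* transformation with *NtCBL5A* in the vector pCHF3 for overexpression in the whole plant. The transgene therefore cannot be told apart from other differences between this line and WT. The libraries held between 18674594 and 31672013 counts. All 12 photosynthesis genes that the study names with an identifier had at least 20 counts in every library, as a leaf blade should show. Their summed FPKM was 22982 and 15996 in S-OE2, 82983 and 49289 in C-OE2, 63054 and 35103 in S-WT, and 91296 and 58549 in C-WT.

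Calcineurin B-like proteins (CBLs) such as NtCBL5A bind Ca2+ and then bind and regulate a family of protein kinases, the CIPKs. In plants, CBL-CIPK pairs are known for controlling ion transporters under salt and other stresses. Tobacco is an allotetraploid, so that many genes exist as 2 similar copies, and reads from near-identical copies may have been divided between them in the counts. The identifiers of the 50 genes are those of the Nitab4.5 assembly, or, for genes that the authors assembled from their own reads with StringTie, a common prefix and a running number, of which the number is given here. The data pair neither kind with a gene name, and 0 of the 50 matched the RefSeq gene table of tobacco. Of all 81378 genes 0 matched it as well, so that this is no trait of the 50. The genes are therefore described by identifier, position and level, with no function given. *NtCBL5A* itself was not identified among them by name and was not analysed here.

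**Figure D1:**
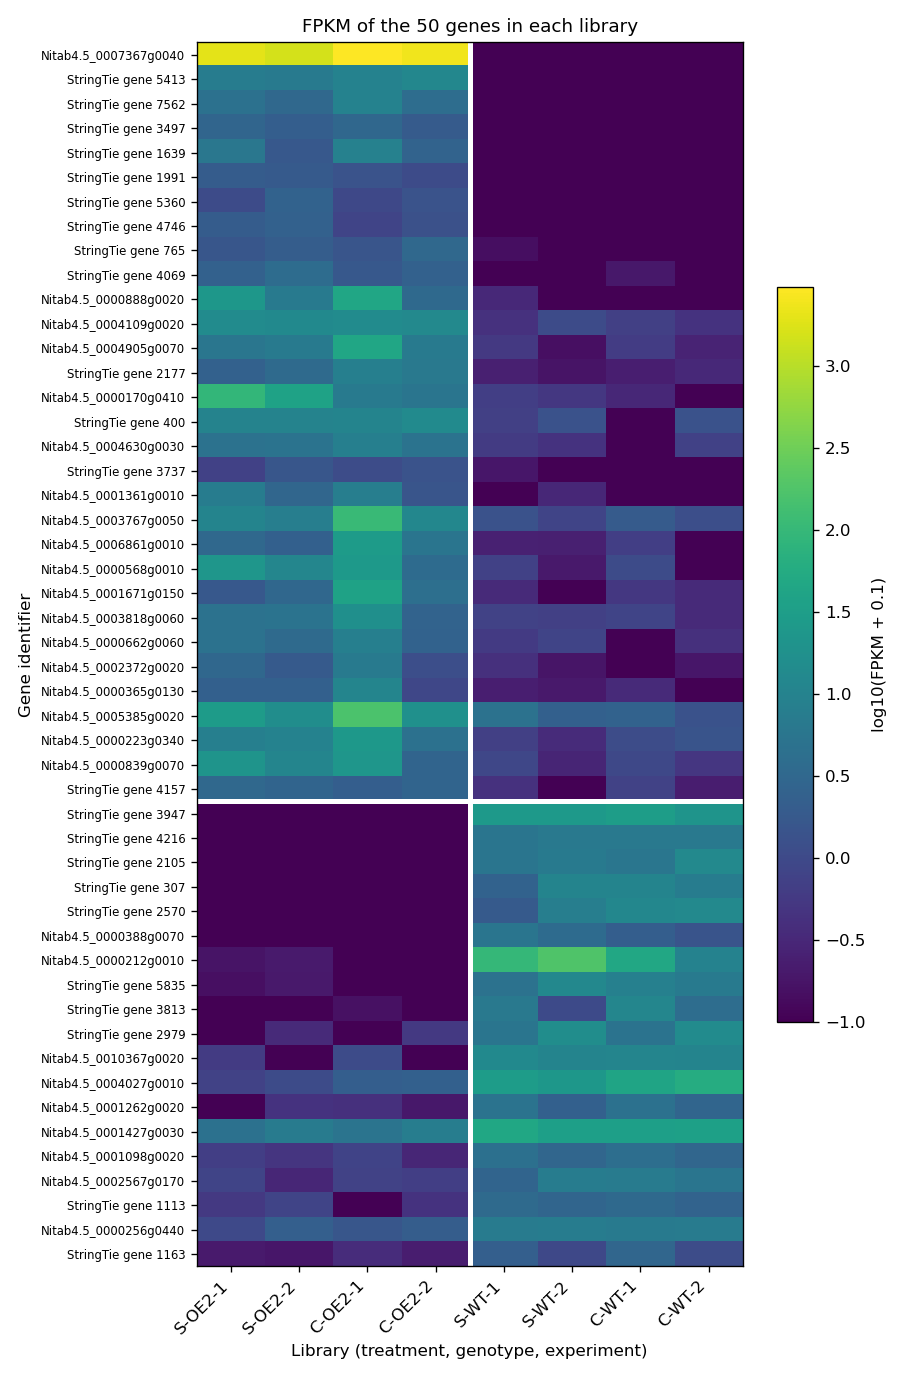
FPKM of the 50 genes, as log10(FPKM + 0.1), with 1 row per gene and 1 column per library. The 31 genes higher in OE-2 are above the white line and the 19 genes higher in WT below it, and the 4 OE-2 libraries stand left of the 4 WT libraries. Among the 31, the rows of many annotated genes are brightest in C-OE2-1.

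In the genes higher in OE-2, the level in the OE-2 libraries covered a wide range, and 1 gene stood far above the rest. Nitab4.5_0007367g0040 (scaffold Nitab4.5_0007367, 24441 to 26524, plus strand) had 1986 and 1556 FPKM in S-OE2, 3012 and 2453 FPKM in C-OE2, and 0 counts in each of the 4 WT libraries. Its mean of 2252 ± 626 FPKM (SD, n = 4) ranked it at place 80 of the 57086 genes with any count in OE-2. Against a floor of 3 counts per WT library its level in OE-2 was higher by at least 3615-fold with salt and 3705-fold without it. Whether its reads come from the transgene was not tested. The next highest mean was 56.0 FPKM, in Nitab4.5_0005385g0020 (scaffold Nitab4.5_0005385, 172228 to 172989, minus strand). That gene had 28.6 and 15.6 FPKM in S-OE2, 162 and 17.3 FPKM in C-OE2, 4.71 and 2.30 FPKM in S-WT, and 2.44 and 1.22 FPKM in C-WT. Over all 31 genes the median of the mean levels in OE-2 was 5.86 FPKM, and the lowest was 1.1 FPKM in StringTie gene 3737.

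Of the 31 genes, 8 had 0 counts in every WT library, 4 had 1 to 3 counts in the WT libraries together, and 19 had more. For the 8 genes at 0, these lower bounds lay between 18.7-fold and 3615-fold under salt, and between 7.75-fold and 3705-fold under control conditions. Of these, StringTie gene 5413 (scaffold Nitab4.5_0010790, 39027 to 52160, minus strand) ranked second after Nitab4.5_0007367g0040 by its lowest level. It had 7.56 and 6.86 FPKM in S-OE2, against 9.46 and 11.6 FPKM in C-OE2. The 23 genes with counts in WT had ratios of the lowest OE-2 to the highest WT value from 3.13 to 31.6, with a median of 4.47. Just inside the limit of 3 was StringTie gene 4157, with a lowest value of 2.08 FPKM in OE-2 and a highest value of 0.664 FPKM in WT (ratio 3.13). Just outside it was Nitab4.5_0001519g0130, with 3.03 and 1.02 FPKM (ratio 2.99).

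In the genes higher in WT, the highest levels belonged to 2 annotated genes. Nitab4.5_0000212g0010 (scaffold Nitab4.5_0000212, 40554 to 43413, plus strand) had 2 and 3 counts in S-OE2, 0 and 0 counts in C-OE2, 1814 and 3513 counts in S-WT, and 498 and 173 counts in C-WT. Its FPKM averaged 0.0466 ± 0.0564 in OE-2 and 82.9 ± 71.8 in WT (SD, n = 4 each), and it ranked at place 2553 of 55214 genes with any count in WT. Nitab4.5_0004027g0010 (scaffold Nitab4.5_0004027, 239497 to 240615, plus strand) had 0.656 and 0.957 FPKM in S-OE2, 2.06 and 2.29 FPKM in C-OE2, 29.8 and 23.4 FPKM in S-WT, and 40.5 and 59.3 FPKM in C-WT. In the second gene both salt libraries were below both control libraries in each genotype, whereas in the first both were above in WT.

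Of the 19 genes, 6 had 0 counts in every OE-2 library, 2 had 1 to 3 counts in the OE-2 libraries together, and 11 had more. Against the floor of 3 counts per OE-2 library, the lower bounds of the fold by which WT exceeded OE-2 lay between 27.7-fold and 149-fold under salt and between 10-fold and 107-fold under control conditions. The 2 of them with the highest minimum in WT had similar levels in all 4 WT libraries. StringTie gene 3947 (scaffold Nitab4.5_0004757, 35469 to 38763, plus strand) had 25.0 and 25.0 FPKM in S-WT and 30.5 and 20.6 FPKM in C-WT. StringTie gene 4216 (scaffold Nitab4.5_0005447, 157485 to 164227, minus strand) had 5.49 and 6.49 FPKM in S-WT, against 6.48 and 6.42 FPKM in C-WT. With 1 to 3 counts in OE-2, StringTie gene 3813 had 1 count there and StringTie gene 5835 had 3. The summed level in WT was 528 times that in OE-2 for StringTie gene 3813 (exact 95% interval 94.3 to 20922) and 176 times for StringTie gene 5835 (59.7 to 856). These intervals cover counting error only and are no test, since the same values chose the genes. Just inside the limit was StringTie gene 1163, with a highest value of 0.265 FPKM in OE-2 and a lowest value of 0.819 FPKM in WT (ratio 3.09). Just outside it was Nitab4.5_0009461g0020, with 1.98 FPKM in OE-2 and 5.75 FPKM in WT (ratio 2.91).

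**Figure D2:**
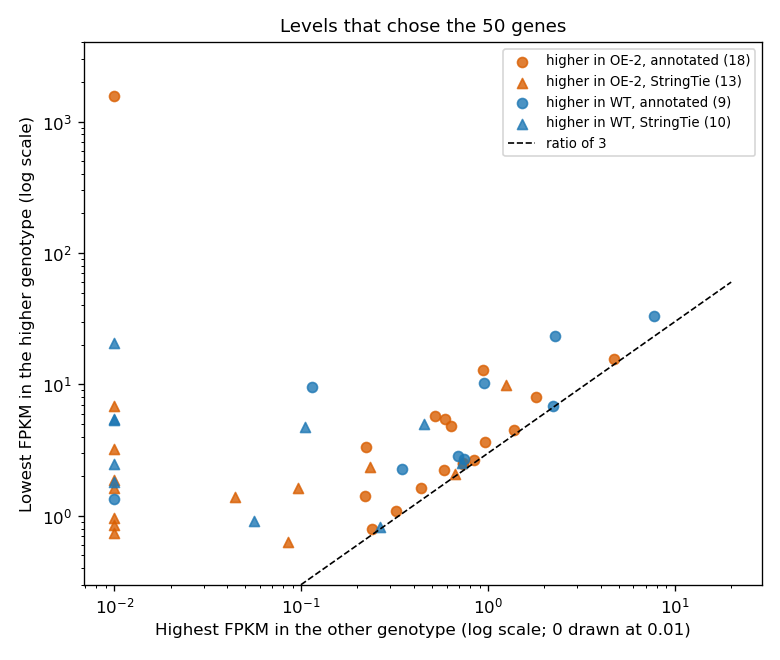
Lowest FPKM in the higher genotype against the highest FPKM in the other genotype for each of the 50 genes, on log scales, with genes at 0 drawn at 0.01. Circles are annotated genes, triangles are StringTie genes, and the dashed line is the ratio of 3 that the rule set. The 14 genes at 0 in the other genotype form the left column, and 12 of them are triangles.

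The rule did not use the source of the gene model, its structure or its position. Genes assembled by StringTie were common among the members, with 13 of the 31 genes higher in OE-2 (41.9%) and 10 of the 19 genes higher in WT (52.6%). They made up 10.3% of the 33284 genes that passed the count minimum in at least one genotype, which are the genes that could have been chosen. Their share was largest where the other genotype had no reads. Of the 14 genes at 0 counts in the other genotype 12 were StringTie genes, against 11 of the 36 genes with counts in both genotypes. The authors' assembly used reads of these same libraries, and whether this had a part in the shares was not tested. Among the genes higher in OE-2, the mean FPKM of the StringTie genes in that line had a median of 2.52 (1.1 to 11.1), against 12.8 (3.15 to 2252) for the 18 annotated genes. In WT the medians were close to each other, at 7.59 FPKM for the 10 StringTie genes and 7.13 FPKM for the 9 annotated genes.

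Gene models without an intron, whose length equals their span on the scaffold, made up 8 of the 18 annotated genes higher in OE-2 (44.4%) and 2 of the 9 annotated genes higher in WT (22.2%). Among all annotated genes that passed the count minimum the share was 10.7%. Of the StringTie members, 2 of 13 higher in OE-2 and 0 of 10 higher in WT lacked an intron, against 9.93% of the StringTie genes that passed the minimum. Gene length covered 180 to 5002 bases with a median of 906, against a median of 1232 for all genes that passed the minimum.

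The 50 genes lay on 50 different scaffolds, so that no member had another member as its neighbour on the same scaffold. How the scaffolds lie to each other in the genome was not examined. Of the 50 genes, 2 StringTie genes were alone on their scaffold. A nearest gene that entered the test lay on the same scaffold for 46 of the 50, at a median distance of 14165 bases. For 34 of the 46 (73.9%), this neighbour had a log2 fold change of OE-2 over WT below 1 in size under both conditions, and over all genes tested the share was 77.8%. For 5 of them the neighbour differed by 1 or more in the same direction as the member under both conditions. For 0 of the 46 it did so in the opposite direction, so that the 5 are also the count for either direction. Over all genes tested, 3.88% differed by 1 or more with the same sign under both conditions, in either direction. The neighbours of 3 of these 5 members had no count in the other genotype. Next to Nitab4.5_0000888g0020, Nitab4.5_0000888g0010 had 69 and 12 counts in S-OE2, 21 and 0 counts in C-OE2, and 0 counts in the 4 WT libraries. Next to Nitab4.5_0001361g0010, Nitab4.5_0001361g0060 had 12 and 2 counts in S-OE2, 10 and 0 counts in C-OE2, and again 0 counts in WT. At 54 bases from StringTie gene 1163, StringTie gene 1162 had 0 counts in the 4 OE-2 libraries, 11 and 9 counts in S-WT, and 11 and 8 counts in C-WT. The 3 neighbours without counts in the other genotype were below the count minimum of the rule, and all 5 pairs were named after their values were seen. The member Nitab4.5_0000662g0060 overlaps a gene on the opposite strand, Nitab4.5_0000662g0050, and since strand-specific counting is not stated, single reads of the 2 genes cannot be told apart. The member had 46 and 31 counts in S-OE2, 42 and 21 in C-OE2, 3 and 5 in S-WT, and 0 and 2 in C-WT. The overlapping gene had 569 and 765 counts in S-OE2, 1140 and 1573 in C-OE2, 1162 and 990 in S-WT, and 872 and 1314 in C-WT, so that it was not low where the member was.

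The annotated genes higher in OE-2 were not equally high in its 4 libraries. In all 18 the FPKM in C-OE2-1 was above that in C-OE2-2, and in 13 of the 18 it was at least 5 times as high. Of the 13 StringTie genes higher in OE-2, 5 were higher in C-OE2-1 than in C-OE2-2, and 0 by 5 times or more. Among the 32572 genes with at least 20 counts in all OE-2 libraries, 1.18% were at least 5 times as high in C-OE2-1, and the median ratio was 1.00. Under salt the 2 experiments differed less, and the ratio of S-OE2-1 to S-OE2-2 was between 0.544 and 3.59 for all 18 annotated genes. All 13 genes had their highest value of the 8 libraries in C-OE2-1. Of these 13 genes, 8 had a gene model without an intron, which is all such annotated genes among the 31.

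Nitab4.5_0005385g0020, given above, had 162 FPKM in C-OE2-1 and 17.3 FPKM in C-OE2-2. Nitab4.5_0000839g0070 (scaffold Nitab4.5_0000839, 387250 to 390614, plus strand) had 21.0 and 10.9 FPKM in S-OE2, 22.1 and 2.66 FPKM in C-OE2, 0.800 and 0.186 FPKM in S-WT, and 0.838 and 0.409 FPKM in C-WT. Without C-OE2-2, 112 genes met the rule for OE-2 in place of 31, and 4 of the 81 added genes were from StringTie. Without S-WT-1 the number was 66, and 1 of the 35 added genes was from StringTie. For WT the number was between 20 and 25 when any 1 library was left out. Leaving out a library relaxes the rule, so that genes can be added but no member can be lost. The study names 12 defense genes with an identifier, most of them chosen by the study on these samples. Their summed FPKM was 49294 in S-OE2-1 and 31677 in S-OE2-2, and 934 in C-OE2-1 and 612 in C-OE2-2. In WT it was 1940 in S-WT-1 and 484 in S-WT-2, and 671 in C-WT-1 and 744 in C-WT-2. Without the highest gene of each library, the sums were 28193.5 and 17690.9 in S-OE2 and 84.9 and 85.3 in C-OE2. In WT they were 1404 and 103 in S-WT, and 52.9 and 76.1 in C-WT. All 12 genes were above 0 in S-OE2-1 and S-OE2-2, and 1 of them was at 0 in each of C-OE2-1 and C-OE2-2. In S-WT-1 and S-WT-2 it was 0 and 2 genes, and in C-WT-1 and C-WT-2 it was 3 and 0 genes. Their part in the counts of members was not tested.

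**Figure D3:**
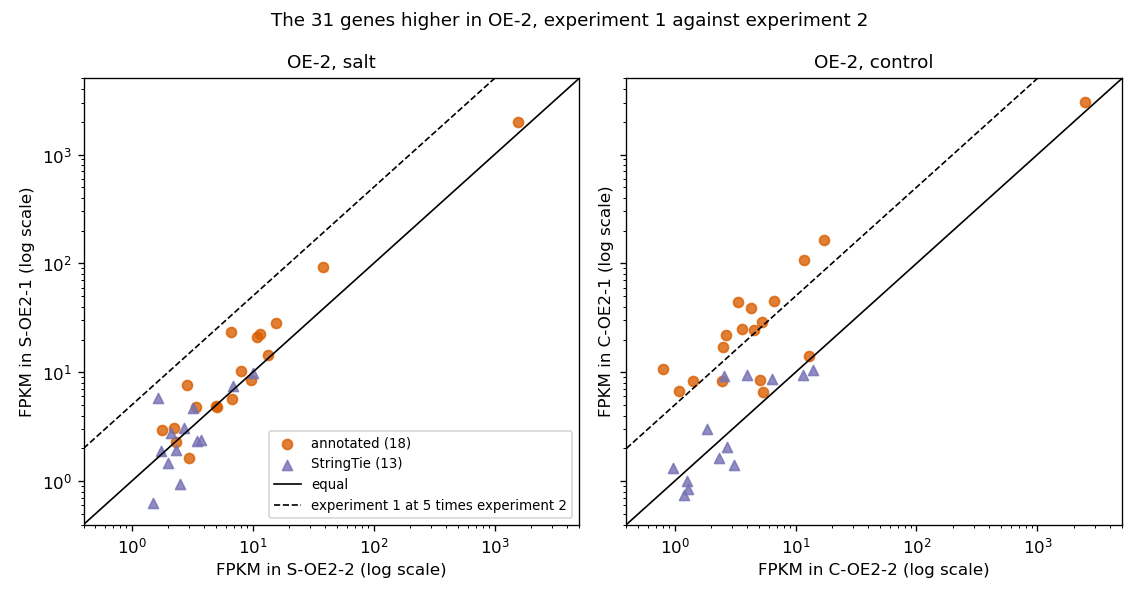
FPKM in experiment 1 against experiment 2 for the 31 genes higher in OE-2, under salt (left) and control conditions (right), on log scales. Circles are the 18 annotated genes and triangles the 13 StringTie genes; the solid line marks equal values and the dashed line a ratio of 5. In the control panel 13 circles and no triangle lie on or above the dashed line, whereas in the salt panel no gene does.

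The salt contrasts were not the ones that chose the members, although a high minimum in every library of one genotype limits how far a member can move there. They were fitted for the 44564 genes that passed edgeR's filter on low counts, all 50 members among them. The quasi-likelihood test was used, and its p-values were adjusted by Benjamini-Hochberg over all these genes. In OE-2 the share of all genes called with an adjusted p below 0.05 was 5.73% for higher and 6.18% for lower levels under salt. Of the 31 genes higher in OE-2, 1 rose and 1 fell, and without adjustment 2 of the 31 were higher and 6 lower with a p below 0.05, where 12.8% of all genes tested were higher and 13.6% lower. Of the 19 genes higher in WT, 0 rose and 1 fell in OE-2. However, 6 of these 19 genes had 0 counts in every OE-2 library, so that they could not be called there. For the 31 genes, 1 called in each direction is no larger a share than that of all genes called. With DESeq2 1 of the 50 members rose and 3 fell. With total-count scaling 3 members rose and 0 fell, and with the 4 OE-2 libraries alone 2 rose and 1 fell. The median log2 fold change of the 31 genes was -0.23, against 0.02 over all genes tested. Among the 31 are the 13 genes at least 5 times as high in C-OE2-1 as in C-OE2-2. Their median was -0.39, with 9 of the 13 below 0, and all 13 had their highest value in that 1 control library. Both experiments moved in the same direction with salt for 17 of the 31 genes, 7 of them to higher and 10 to lower FPKM. The share over all genes was not determined. All 13 genes with the high value in C-OE2-1 fell with salt in experiment 1, and 9 of these 13 rose in experiment 2.

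Nitab4.5_0000170g0410 (scaffold Nitab4.5_0000170, 912347 to 913395, minus strand) was the member that rose in OE-2. It had 1172 and 455 counts in S-OE2, 44 and 61 counts in C-OE2, 5 and 4 counts in S-WT, and 1 and 0 counts in C-WT. Both salt libraries were above both control libraries in each genotype. The log2 fold change in OE-2 was 3.40 ± 0.34 (SE; edgeR adjusted p = 0.000978), and the call was made under all 14 other settings of the test. In WT the log2 fold change was 2.49 ± 1.06 (edgeR adjusted p = 0.504), and the difference between the 2 salt effects was 0.91 ± 1.97 (edgeR adjusted p = 0.947). This difference is too uncertain at such low WT counts to say whether the salt effect depended on the genotype. The next smallest p for a higher level under salt belonged to StringTie gene 4746 (scaffold Nitab4.5_0007116, 23480 to 31672, plus strand). It had 1.92 and 2.31 FPKM in S-OE2, 0.740 and 1.20 FPKM in C-OE2, and 0 counts in WT, with a log2 fold change of 1.24 ± 0.41 and an edgeR adjusted p of 0.104. Of the 14 other settings 2 called it, total-count scaling and the 4 OE-2 libraries alone, and the adjusted p ranged from 0.0256 to 0.534.

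The 2 members that fell in OE-2 came from opposite sides of the rule. Nitab4.5_0006861g0010 (scaffold Nitab4.5_0006861, 115677 to 117185, plus strand), a gene higher in OE-2, had 115 and 79 counts in S-OE2, 563 and 175 counts in C-OE2, 4 and 4 counts in S-WT, and 8 and 0 counts in C-WT. Its log2 fold change was -2.14 ± 0.56 (SE; edgeR adjusted p = 0.0394), and 8 of the 14 other settings made the call. It was not called by DESeq2 (log2 fold change -2.02, DESeq2 adjusted p = 0.320). It is among the 13 genes that were at least 5 times as high in C-OE2-1 as in C-OE2-2. Without C-OE2-1 its log2 fold change was -1.38 and without S-OE2-1 -1.19, both no longer called, and without C-OE2-2 it was -2.90, also not called. Nitab4.5_0004027g0010, a gene higher in WT, had 18 and 25 counts in S-OE2, against 30 and 56 counts in C-OE2. Its log2 fold change in OE-2 was -1.33 ± 0.33 (SE; edgeR adjusted p = 0.0327), and the call was made under 7 of the 14 other settings. Leaving out any one of the 4 OE-2 libraries ended it, with log2 fold changes from -1.56 to -1.14.

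In WT the share of all genes called was 0.0381% for higher and 0.0494% for lower levels under salt. None of the 50 members was called by edgeR or by DESeq2. However, 8 of the 31 genes higher in OE-2 had 0 counts in every WT library and could not be called there. Without adjustment, 2 of the 19 genes higher in WT were higher and 3 were lower under salt with a p below 0.05, and 1 of the 31 genes higher in OE-2 was higher. Over all genes tested the unadjusted shares were 4.76% for higher and 4.88% for lower levels. The median log2 fold change of the 19 genes was 0.05, against 0.03 over all genes tested. The smallest p belonged to Nitab4.5_0000212g0010, whose 2 salt libraries in WT (1814 and 3513 counts) were above both control libraries (498 and 173 counts). Its log2 fold change was 2.60 ± 0.68 (SE; edgeR adjusted p = 0.286). Without S-WT-1 it was 4.12 and without C-WT-1 it was 4.24, both called, and the adjusted p ranged from 0.0305 to 1 over the 14 other settings. Nitab4.5_0000388g0070 (scaffold Nitab4.5_0000388, 540364 to 563645, minus strand), with 0 counts in OE-2, had 98 and 70 counts in S-WT, against 21 and 24 counts in C-WT (log2 fold change 1.44 ± 0.48, edgeR adjusted p = 0.422). In the other direction, Nitab4.5_0004027g0010 had a log2 fold change of -0.83 ± 0.25 (edgeR adjusted p = 0.354) and StringTie gene 3813 one of -1.34 ± 0.42 (edgeR adjusted p = 0.378). StringTie gene 3813 had 6.43 and 0.906 FPKM in S-WT, against 11.3 and 3.95 FPKM in C-WT. The groups overlapped, but within each experiment the salt library was lower, by a log2 FPKM difference of -0.81 in experiment 1 and -2.12 in experiment 2.

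**Figure D4:**
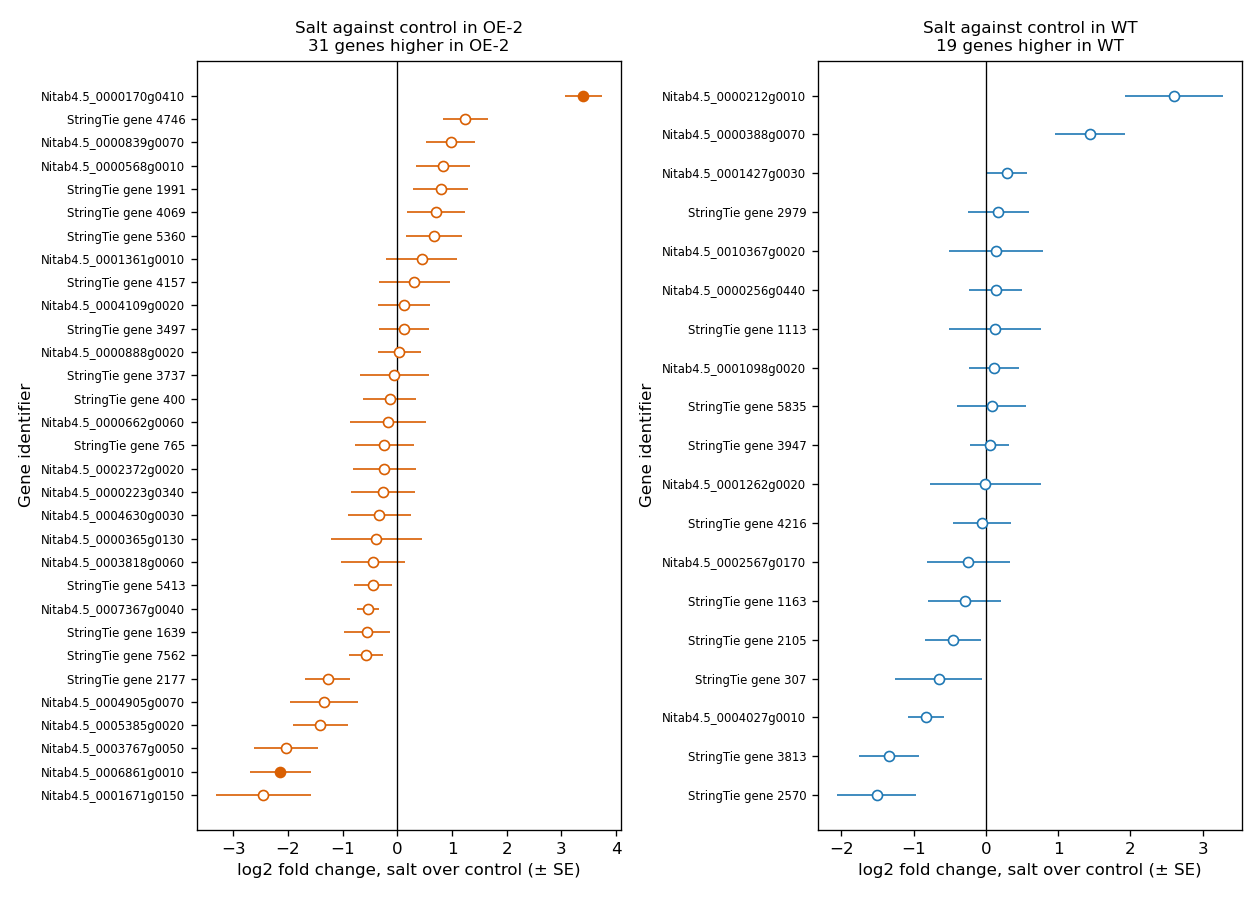
Log2 fold change of salt over control with its standard error, for the 31 genes higher in OE-2 in the OE-2 libraries (left) and for the 19 genes higher in WT in the WT libraries (right). Filled points have an edgeR adjusted p below 0.05, and there are 2 on the left and none on the right.

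The difference between the salt effects, OE-2 minus WT, asks whether a member's genotype difference changed with salt. Over all genes, 0.0135% were called with a larger and 0.00224% with a smaller log2 fold change in OE-2, and 0 of the 50 members were called by edgeR or by DESeq2. Without adjustment 1 member had a p below 0.05, in the lower direction, against 4.43% of all genes for a larger and 5.42% for a smaller log2 fold change in OE-2. For the 14 genes at 0 counts in one genotype no salt effect can be measured there, so that this test says nothing about them. The member with that p was Nitab4.5_0005385g0020, whose log2 fold change with salt was -1.40 ± 0.51 in OE-2 and 0.97 ± 0.67 in WT. The difference was -2.38 ± 0.84 (SE; edgeR adjusted p = 0.382). Without C-OE2-1 the difference was -1.07, and without C-OE2-2 it was -3.36. In OE-2 the log2 FPKM difference of salt from control was -2.51 in experiment 1 and -0.15 in experiment 2. In counts, the gene had 534 and 277 in S-OE2, 1611 and 288 in C-OE2, 59 and 31 in S-WT, and 17 and 15 in C-WT. Among the members with the smallest p in each direction, the other differences were -5.06 ± 2.73 for StringTie gene 3737 (scaffold Nitab4.5_0004226, 241018 to 246255, plus strand), which had 7 counts in S-WT-1 and 0 in the other WT libraries, and 3.36 ± 1.98 for StringTie gene 5835 (scaffold Nitab4.5_0020575, 3879 to 7087, plus strand), which had 1 and 2 counts in S-OE2 and 0 in C-OE2. For Nitab4.5_0000839g0070 the difference was 1.41 ± 0.93 (edgeR adjusted p = 0.698).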

How the data were processed

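Leaf RNA of 8 libraries (S-OE2, C-OE2, S-WT and C-WT, 1 library per group in each of 2 experiments) was analysed. The authors aligned reads with HISAT2 2.0.5, assembled additional genes with StringTie 1.3.3b and counted with featureCounts 1.5.0-p3 (submitters' processing notes). They deposited raw counts and FPKM values per gene. The deposited FPKM equal the count divided by gene length and by 1 denominator per library, which was 49.0% to 97.6% of its total count. The treatment of reads that match more than 1 gene is not given in the sources used here.

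Members were found in the table by the rule on FPKM and counts. The members and the lists were chosen with earlier results of these data known. Salt effects were tested on the raw counts with edgeR 4.0.16 in R 4.3.3 (filterByExpr, TMM, quasi-likelihood test, Benjamini-Hochberg over 44564 genes, threshold 0.05), over all 8 libraries with group and experiment as terms. Standard errors were obtained from the F statistic as |log2 fold change|/√F. The experiment numbers pair the libraries, since the study compared groups within each independent experiment. Deviations from the group means correlated between libraries of the same experiment (r from 0.383 to 0.517). The 2 libraries of a group differed beyond counting noise, with a chi-square of 59.2 to 121 per degree of freedom. A fold against a genotype at 0 used a floor of 3 counts per library, as CPM on TMM library sizes. Alternatives were DESeq2 1.42.0, median-ratio factors, total counts, no filter, no replicate block, the libraries of a comparison alone, a minimum log2 fold change of 1, other limits of the rule, and leaving out each library.

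The genes named are, in each direction, the 2 with the highest ratio, the 2 with the highest mean FPKM, those on either side of the ratio of 3, the 2 with the smallest p for each salt contrast in each direction, and any neighbouring members. Other genes named were chosen after their values were seen. Coordinates are those of the files, on Nitab4.5 scaffolds.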

Additional observations from a re-analysis of the deposited data

How the results depend on the processing

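The number of genes higher in OE-2 was 50 with a ratio of 2, 19 with a ratio of 5 and 14 with a count minimum of 50, against 31, and 32 to 112 when 1 library was left out. The number higher in WT was 7 with a count minimum of 50, against 19, and 20 to 25 when 1 library was left out. By the form of the rule, leaving out a library can only add genes. With CPM on TMM library sizes in place of FPKM, 32 genes were higher in OE-2, including all 31, and 18 were higher in WT, all among the 19. With CPM on total counts, 37 were higher in OE-2, 30 of them among the 31, and 17 were higher in WT, 15 of them among the 19. Members with a salt effect in OE-2 numbered 3, 1 that rose and 2 that fell. With DESeq2 they numbered 4, 1 that rose and 3 that fell. With total-count scaling, which moved the median over all genes tested to 0.50 on the log2 scale, against 0.02, 3 rose and 0 fell, and with the 4 OE-2 libraries alone 2 rose and 1 fell. The members called numbered 6 with no filter and 1 with no replicate block, and 1 to 5 when 1 library was left out. Without C-OE2-1 or S-OE2-1 the number was 1, and without C-OE2-2 or S-OE2-2 it was 5. Members with a salt effect in WT numbered 0, but 1 with no filter, and 0 to 1 when 1 library was left out. No member was called for a different salt effect in OE-2 and WT under any setting. That difference was -5.06 for StringTie gene 3737 and ranged from -6.59 to 0.13 when 1 library was left out, the last without S-WT-1, which holds all its WT counts. The causes of the other changes were not tested. Each group has 2 libraries, and members with few counts in one genotype allow no firm statement on salt there.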

Other observations

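Genes that met the ratio of 3 with a lowest count of 10 to 19 in the higher genotype, below the minimum of the rule, numbered 14 for OE-2 and 9 for WT. Of these, 9 of the 14 and 7 of the 9 were StringTie genes. In the other genotype, 8 of the 14 and 4 of the 9 had 0 counts in every library. The shares over all genes with such lowest counts were not determined, so that these counts are a description only.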
